A study of Mus musculus with 12 samples.

Results

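The potassium channel genes of the mouse prostate are described here. They are the genes whose symbol is Kcn followed by letters and a number, the naming of the pore-forming and auxiliary subunits of potassium channels, and that had at least 10 reads in at least 2 libraries of 1 of the count tables. Of 28075 genes listed in either table, 88 had such a name and 81 passed the count rule. The other 7, Kcne1, Kcne2, Kcnj4, Kcnj11, Kcnj13, Kcnk7 and Kcnk18, were too low. By role, the 81 comprised 39 voltage-gated alpha subunits, 8 calcium- or sodium-activated channels, 11 inward rectifiers, 11 two-pore leak channels and 12 auxiliary subunits. The F1 counts admitted 79 of them and the F3 counts 48, and 46 passed in both generations. At the edge of the rule, Kcnh8 passed with 13, 0, 0, 11 and 0 reads in the F1 libraries, whereas Kcnj11 missed it with 0, 6, 1, 13 and 9 reads.

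The messenger RNA came from prostates of F1 and F3 male mice. Pregnant F0 females had received chlordecone (kepone), an organochlorine insecticide, at a daily 100 µg/kg between E6.5 and E15.5, days of embryonic development. The F1 males are the offspring of the dosed females, exposed in the womb, and the F3 males descend from them by further crosses. Each generation had a control and a chlordecone group, with 3 samples a group in the labels. One library in the labels, F1 control 3, is not analysed here, so F1 set 2 controls beside 3 chlordecone libraries, and F3 had 3 of each. No label gives strain, age or vehicle, or tells whether a sample was 1 animal or a pool and which samples shared a litter, so every p-value measures only the spread between these samples.

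Potassium channels let potassium ions leave or enter a cell along their gradient and set its membrane voltage. Voltage-gated channels open on depolarisation and end action potentials. Calcium-activated channels couple a rise in calcium to hyperpolarisation, and in smooth muscle the large-conductance channel encoded by Kcnma1 opposes contraction. Inward rectifiers and two-pore leak channels hold the resting voltage, and in secretory epithelia potassium channels sustain the driving force for chloride and fluid secretion. Auxiliary subunits change the gating or surface delivery of the pore-forming ones.

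Total counts were 17228539 to 28061760 in the F1 libraries and 71672418 to 114762135 in the F3 libraries. Levels are given as CPM, the read count scaled to library size with edgeR's TMM factors, and the tables were made separately, so levels side by side across generations are descriptions. No pair of libraries of a group was alike within sampling noise, where a chi-square per gene near 1 would be found; the lowest was 16.6, between the F1 controls. Markers of other tissues differed widely between the F1 libraries. The summed CPM of the 5 listed markers of vas deferens and epididymis was 25.2 and 25.7 in the F1 controls, against 44404, 156 and 14329 in chlordecone 1, 2 and 3. Seminal vesicle markers summed to 118447 and 121062 CPM in the F1 controls and to 187024, 430207 and 528811 CPM in F1 chlordecone 1, 2 and 3, and to at most 70.2 CPM in any F3 library. Smooth muscle markers summed to 4099 and 4014 CPM in the F1 controls and to 11912, 4716 and 7510 CPM in the F1 chlordecone libraries. Markers of the prostate's own luminal epithelium were high throughout, at 40515 to 106833 CPM. In bulk tissue, more or fewer cells of a type and more or less RNA per cell cannot be told apart.

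As a whole the family was expressed at low levels and in a different balance in each generation. In F1, 51 to 69 of the members reached 1 CPM in a library, against 17 to 24 in F3. By F1 counts alone 33 members passed the rule, and by F3 counts alone 2, so this contrast partly follows from the choice of members. The summed level was 429 and 421 CPM in F1 control 1 and 2, and 737, 540 and 513 CPM in F1 chlordecone 1, 2 and 3. In F3 it was 318, 336 and 307 CPM in the controls and 295, 312 and 279 CPM in the chlordecone libraries. Kcnma1, a long transcript, took the largest share of the family's reads in both F1 controls, 29.1% and 31.7%. In the F1 chlordecone libraries the largest share went to a different gene each time, Kcnj16 with 25.3% in chlordecone 1, Kcnk3 in chlordecone 2 and Kcnk1 in chlordecone 3. Kcnk1 took 55.8% to 67.3% in every F3 library. Per kilobase of exon, Kcnk1 had the highest level in both F1 controls, at 13.4 and 12.6 CPM per kb, and in every F3 library, at 76.7 to 93.9 CPM per kb.

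**Figure D1:**
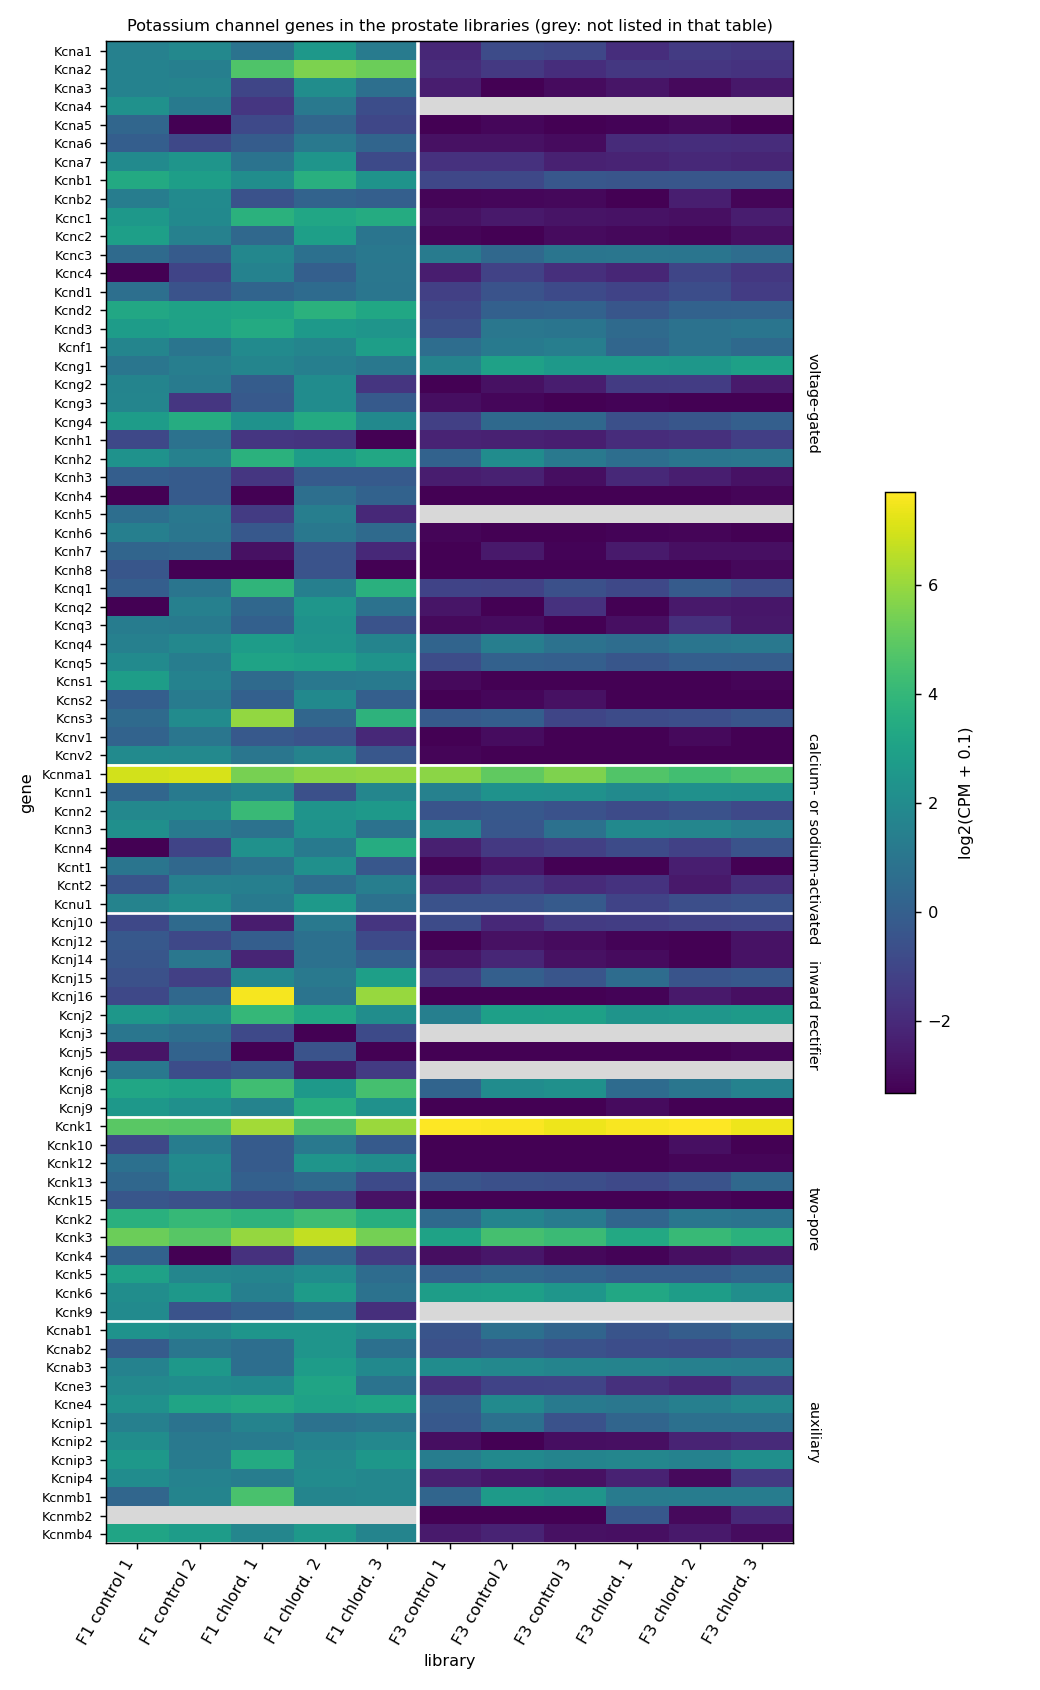
Levels of the 81 potassium channel genes, as log2(CPM + 0.1) in colour, in the 11 libraries; rows are genes grouped by role, columns are libraries with F1 left and F3 right of the white line, and grey cells are genes not listed in a table. Kcnk1 is the brightest row in F3, Kcna2 is brighter in the 3 F1 chlordecone libraries than in the F1 controls, and Kcnj16 and Kcns3 are bright in F1 chlordecone 1 and 3 and dark in chlordecone 2.

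Chlordecone was tested against control within each generation with edgeR's quasi-likelihood test over all genes, and a gene was called at a Benjamini-Hochberg adjusted p under 0.05. In F1, 1 of the 79 members tested was called, Kcna2, where 0.0281% of all genes tested were called. At an unadjusted p under 0.05, 11 members were higher and 2 lower, 13.9% and 2.53% of those tested, beside 7.93% and 3.60% of all genes tested. Among the higher ones, Kcnn4 had fewer than 10 reads in both controls and passed edgeR's low-count filter only through the treated libraries. The groups did not overlap for 13 members on the higher side and 11 on the lower, 16.5% and 13.9%, which is near the 16.2% and 15.1% of all genes. The median log2 fold change of the members was 0.08, against 0.02 for all genes, and without F1 chlordecone 2 it was -0.30. In F3, edgeR called 0 of the 44 members tested, where 0.0596% of all genes were called. At an unadjusted p under 0.05 there were 2 higher members, Kcna6 and Kcnh1, and 1 lower, Kcnma1, beside 4.97% and 5.64% of all genes. Kcna6 passed edgeR's low-count filter only through its reads in the treated F3 libraries. Without F3 control 1 there were 11 such members in all, but the share of all genes in that fit was not counted. That rise is therefore not a result about the members. The F3 groups did not overlap for 3 members in each direction, where 8.34% of all genes were higher and 8.25% lower without overlap. DESeq2's Wald test called 6 members in F1 (3.89% of all genes), Kcna2, Kcnj15, Kcnj16, Kcnma1, Kcnn4 and Kcnq1, and 2 in F3 (1.28% of all genes), Kcnma1 and Kcnmb2. Kcnmb2 is a member only through its reads in the treated F3 libraries, so its call follows from how members were chosen. The F1 count rested on single libraries. Without F1 chlordecone 2, edgeR called 12 members, the 6 above with Kcna4, Kcnc1, Kcnh2, Kcnj8, Kcnk1 and Kcns3, but in that fit 15% of all genes were called, and the 12 of 76 members are near that share. Without F1 control 1, F1 control 2 or F1 chlordecone 3 edgeR called 0.

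**Figure D2:**
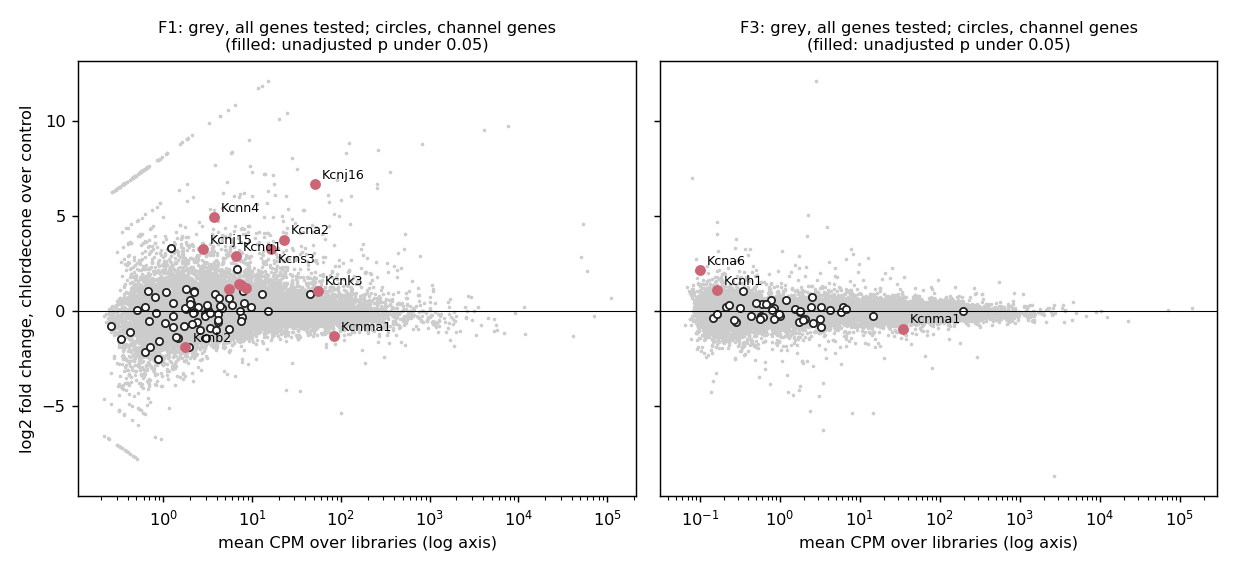
Log2 fold change of chlordecone over control against the mean CPM over libraries (log axis) in F1 and F3; grey points are all genes tested, circles are potassium channel genes, and filled circles are those at an unadjusted p under 0.05, with 4 of the F1 circles (Kcnc1, Kcnh2, Kcnn2 and Kcnq5) left without a name for space. In F1, 11 filled circles lie above 0 and 2 below, with Kcna2 at 3.75 the 1 called, and in F3 the filled circles are Kcna6, Kcnh1 and Kcnma1. Kcnn4 in F1 and Kcna6 in F3 were tested only through their treated libraries.

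Kcna2, which encodes a pore-forming subunit of the delayed rectifiers of axons, rose in the F1 chlordecone prostates. Its level was 2.83 and 2.58 CPM in F1 control 1 and 2, from 54 and 55 reads, and 25.5, 46.1 and 37.5 CPM in F1 chlordecone 1, 2 and 3, from 645, 846 and 814 reads. All 3 treated libraries lay far above both controls. The group means were 2.70 ± 0.178 CPM (SD, n = 2) and 36.4 ± 10.3 CPM (SD, n = 3), a 13.5-fold difference, with a log2 fold change of 3.75 (SE 0.37) and an edgeR adjusted p of 0.0284. The log2 fold change stayed between 3.53 and 3.95 when each library was left out in turn, but the call was lost without F1 control 1 (edgeR adjusted p = 0.711), without F1 control 2 (0.874) or without F1 chlordecone 3 (0.172). Leaving out a control leaves 1 control library, whose spread is taken from the other group. In chlordecone 2 alone, with F1 chlordecone 1 and 3 both left out, a choice made after seeing the data, the log2 fold change was 4.09. That sets 1 treated library beside 2 controls, so no p is given for it here or below.

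Kcna2 lies on the forward strand at chr3:107101146-107115005 (GRCm38), and no other annotated gene overlaps its exons. The RefSeq promoter window, 250 bases before to 50 after the start, at chr3:107101317-107101616 on the forward strand, is shown because this is the called member. It is 66.7% G or C with 31 CpG. The capitals mark a match to the GC box GGGCGG.
Kcna2: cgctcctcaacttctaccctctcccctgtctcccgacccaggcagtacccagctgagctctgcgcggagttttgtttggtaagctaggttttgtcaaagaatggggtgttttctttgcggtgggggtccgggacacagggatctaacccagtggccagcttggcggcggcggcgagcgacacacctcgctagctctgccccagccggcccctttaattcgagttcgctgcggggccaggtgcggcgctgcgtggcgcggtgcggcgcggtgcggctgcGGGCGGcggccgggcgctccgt

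Some nerve markers were higher beside Kcna2 in F1. The summed CPM of 6 neuron markers was 11.8 and 11.6 in the F1 controls, against 23.5, 63.6 and 66.6 in chlordecone 1, 2 and 3; 4 of the 6 had a log2 fold change above 0, and 4 were at an unadjusted p under 0.05. Snap25, a vesicle fusion protein of nerve endings, was at 0.314 and 0.0469 CPM in the controls, against 4.36, 21.5 and 14.4 CPM in the chlordecone libraries. With 6 reads and 1 read in the controls, Snap25 passed edgeR's low-count filter only through the treated libraries. Tubb3, Uchl1 and Prph were also above both controls in all 3 chlordecone libraries, with log2 fold changes of 4.30, 1.66 and 3.03. Syn1, a synaptic vesicle protein, and Th, the enzyme of noradrenaline synthesis, overlapped, at -0.39 and -0.58. None of the 6 passed the adjusted threshold. The 4 Schwann cell markers summed to 35.8 and 34.4 CPM in the controls and to 48.3, 47.9 and 59.2 CPM in the chlordecone libraries, with 3 of the 4 at a log2 fold change above 0 and 1 at an unadjusted p under 0.05. Most of the sum was Pmp22, at 23.7 and 22.8 CPM in the controls and 32.0, 36.4 and 44.0 CPM in the chlordecone libraries. Mbp, Prx and Sox10 overlapped. Sox10 was at 0.996 and 1.73 CPM in the controls, against 0.594, 1.31 and 0.322 CPM (log2 fold change -0.88). The sums of the vas deferens and epididymis, seminal vesicle, clear cell and smooth muscle markers were also above both controls in all 3 chlordecone libraries. So were those of basal epithelium, adipocytes, leukocytes, striated muscle and, barely, pericytes, so the trait was not particular to nerve. Interstitial cell, endothelium, urothelium and prostate luminal sums did not share it. Not every single marker followed its sum. Tagln, the largest part of the smooth muscle sum, was at 1565 CPM in chlordecone 2, below the 2076 and 1995 CPM of the controls. Of the seminal vesicle list, Svs2, Svs5 and Pate4 were above both controls in all 3. Svs1, Svs3a, Svs4 and Svs6 were below both controls in chlordecone 1 and 3 and above them in chlordecone 2. The part of nerve or of any other tissue in the Kcna2 difference was not tested.

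None of the other 6 Kcna genes, its closest relatives, was at an unadjusted p under 0.05 in F1. Kcna1, which pairs with Kcna2 in myelinated axons, was at 2.78 and 3.42 CPM in the F1 controls, against 1.74, 5.83 and 2.30 CPM in the chlordecone libraries. Its groups overlapped. Kcna4 was lower, at 4.72 and 2.20 CPM in the controls and 0.238, 2.13 and 0.506 CPM in the chlordecone libraries, without passing the test (edgeR adjusted p = 0.544). The highest level of these 6 in an F1 library was 5.83 CPM, and their log2 fold changes ran from -1.86 to 1.02.

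In F3 the Kcna2 transcript was barely present. The controls were at 0.159, 0.255 and 0.174 CPM and the chlordecone libraries at 0.242, 0.232 and 0.208 CPM, from 15 to 27 reads each. These ranges overlap, with a log2 fold change of 0.23 (SE 0.39) and an edgeR adjusted p of 0.843. The difference between the generations was itself tested, as the F3 effect minus the F1 effect in 1 fit of the 11 libraries. For Kcna2 it was -3.45 on the log2 scale (SE 0.46), with an edgeR adjusted p of 0.00485. It was called under every alternative run, with adjusted p from 1.95e-07 to 0.0417. Of 75 members tested, Kcna2 alone was called for this difference, where 0.718% of all genes were called, and 10 members were at an unadjusted p under 0.05, beside 16.9% of all genes. Without F1 chlordecone 2 the count of calls was 7, where 13.8% of all genes were called.

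**Figure D3:**
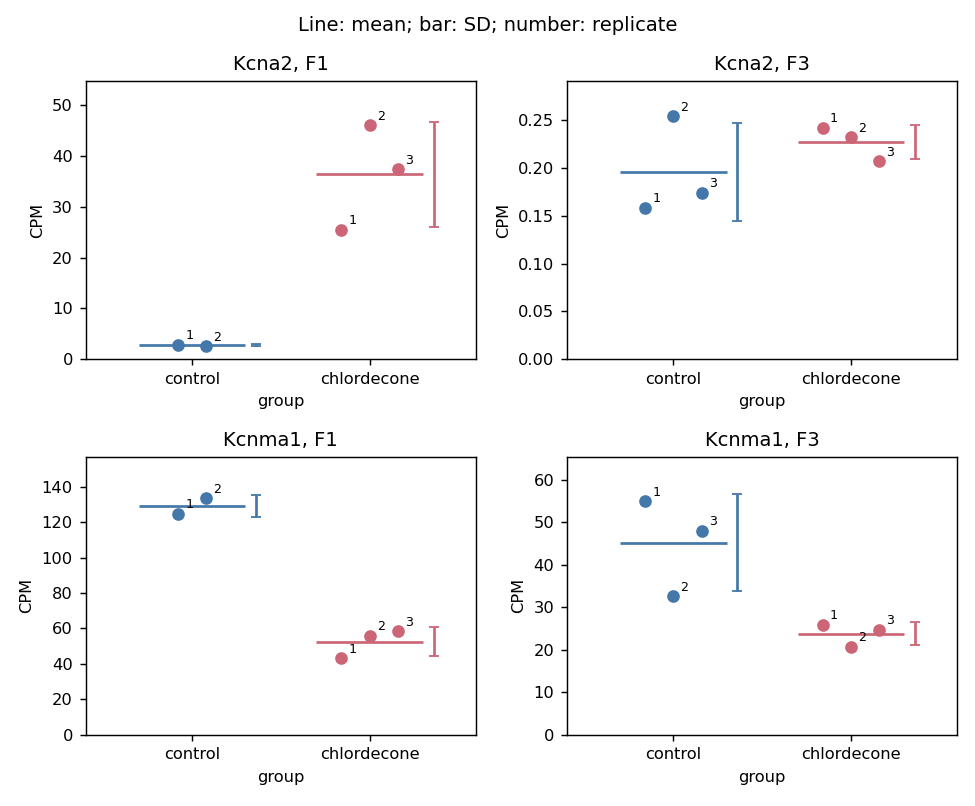
Level in CPM of Kcna2 and Kcnma1 in the control and chlordecone groups of F1 and F3; points are libraries numbered by replicate, horizontal lines are group means, bars beside them are 1 SD either way, and each panel has its own axis from 0. Kcna2 is at 25.5 to 46.1 CPM in the F1 chlordecone libraries and below 3 CPM in every other library, and Kcnma1 is lower in the chlordecone libraries of both generations.

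Among the other voltage-gated alpha subunits, 5 were higher and 1 lower in F1 at an unadjusted p under 0.05, none past the adjusted threshold. Kcnq1, an epithelial and cardiac delayed rectifier, was at 0.891 and 1.83 CPM in the F1 controls, against 14.6, 2.62 and 12.8 CPM in the chlordecone libraries. Chlordecone 1 and 3 were well above the controls and chlordecone 2 just above them. The log2 fold change was 2.87 (SE 0.81, edgeR adjusted p = 0.249). Kcnq1ot1, the noncoding transcript on the opposite strand of Kcnq1, was at 77.5 to 138 CPM in the F1 libraries, with group means of 113 and 110 CPM. Without the strand setting of the counting, reads of Kcnq1 cannot be told apart from those of Kcnq1ot1 where their exons overlap.

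Kcns3, a silent subunit that modifies Kv2 channels, had the widest spread of these. It was at 1.31 and 3.94 CPM in the F1 controls, against 61.5, 1.15 and 13.9 CPM in the chlordecone libraries, so that chlordecone 2 lay below both controls. With chlordecone 1 and 3 left out, its log2 fold change turned from 3.28 to -1.19. Kcnh2, the HERG channel of cardiac repolarisation, was at 4.77 and 2.76 CPM in the controls, against 13.3, 6.82 and 9.67 CPM in the chlordecone libraries. Its log2 fold change was 1.40 (SE 0.48, edgeR adjusted p = 0.325). Kcnc1, a fast delayed rectifier of neurons, was at 5.76 and 3.66 CPM and at 13.1, 9.16 and 11 CPM. For both genes the groups did not overlap. On the lower side, Kcnb2, a slow delayed rectifier, was at 2.46 and 3.80 CPM in the controls, against 0.594, 1.04 and 0.921 CPM in the chlordecone libraries, again without overlap (log2 fold change -1.88, edgeR adjusted p = 0.410). Kcns1, another silent subunit, was at 6.92 and 2.91 CPM and at 1.31, 2.02 and 2.16 CPM, with an edgeR adjusted p of 0.449.

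In F3 the voltage-gated genes were mostly near the limit of detection. Kcna6, a neuronal delayed rectifier, was at 0.0423, 0.0424 and 0.0249 CPM in the controls, beside 0.153, 0.174 and 0.160 CPM in the chlordecone libraries. This was 3 or 4 reads a control library against 15 to 17 reads a treated one. Only the treated libraries reached 10 reads, so Kcna6 passed edgeR's low-count filter in F3 only through the group where it is high. The groups were separate, with a log2 fold change of 2.15 (SE 0.51, edgeR adjusted p = 0.330). That separation follows in part from how genes were admitted to the test. Gm26673, which overlaps Kcna6 exons on the other strand, is listed in neither table. In F1 the Kcna6 groups overlapped, at 0.422 to 0.891 CPM in the controls and 0.831 to 2.07 CPM in the chlordecone libraries. Kcnh1, a further ether-a-go-go channel, was at 0.0913 to 0.116 CPM in the F3 controls and 0.162 to 0.311 CPM in the F3 chlordecone libraries (edgeR adjusted p = 0.463). The most abundant of the class per kilobase of exon in F3 was the modifier Kcng1, at 3.00, 7.88 and 6.06 CPM in the controls and 6.22, 5.58 and 7.70 CPM in the chlordecone libraries, with overlap.

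Kcnma1, the pore of the large-conductance calcium-activated (BK) channel, was lower in the chlordecone libraries of both generations without passing the edgeR threshold in either. In F1 it was at 125 and 134 CPM in control 1 and 2 and at 43.2, 55.9 and 58.6 CPM in chlordecone 1, 2 and 3. In F3 it was at 54.9, 32.6 and 48.0 CPM in the controls, against 25.9, 20.7 and 24.7 CPM in the chlordecone libraries. Every treated library was below every control of its own generation, and the generations share no control. The F1 means were 129 ± 6.26 CPM (SD, n = 2) and 52.6 ± 8.22 CPM (SD, n = 3), 2.46-fold lower under chlordecone. The F3 means were 45.2 ± 11.4 CPM (SD, n = 3) and 23.7 ± 2.72 CPM (SD, n = 3), 1.90-fold lower. The log2 fold change was -1.30 (SE 0.26, edgeR adjusted p = 0.170) in F1 and -0.93 (SE 0.20, edgeR adjusted p = 0.300) in F3, and their difference was 0.43 (SE 0.32, edgeR adjusted p = 0.539). DESeq2 called Kcnma1 in both generations, with adjusted p of 0.000293 in F1 and 0.00642 in F3. Leaving out any 1 library kept the log2 fold change between -1.38 and -1.18 in F1 and between -1.13 and -0.76 in F3. In F1, edgeR also called it in 1 fit of all libraries (adjusted p = 0.0124) and without chlordecone 2 (adjusted p = 0.00690). That fit without chlordecone 2 called 15% of all genes, and the share called in the 1 fit of all libraries was not counted. Kcnma1 was not called without F1 chlordecone 3. In F3, no edgeR fit that left out a library called it, with adjusted p from 0.0606 to 0.895.

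The gene spans chr14:23289431-24014491 on the reverse strand (GRCm38). The noncoding gene 4930519K11Rik overlaps its exons on the other strand and reached at most 2.13 CPM in an F1 library. The promoter window of Kcnma1, at chr14:24004156-24004455 on the reverse strand, is shown because this member was lower in both generations. It is 78.0% G or C with 36 CpG and no TATAAA. Capitals mark 3 GC boxes, 2 of them overlapping and 1 on the other strand.
Kcnma1: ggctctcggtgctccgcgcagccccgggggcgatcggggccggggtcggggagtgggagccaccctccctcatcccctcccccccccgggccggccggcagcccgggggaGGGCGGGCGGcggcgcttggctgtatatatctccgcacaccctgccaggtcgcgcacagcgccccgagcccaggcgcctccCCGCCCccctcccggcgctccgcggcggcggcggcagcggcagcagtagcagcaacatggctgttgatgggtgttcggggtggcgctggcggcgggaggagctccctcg

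In F1 the summed smooth muscle markers were higher in the chlordecone libraries, while Kcnma1 was lower. All 8 markers had a log2 fold change above 0 there, with sums of 4716 to 11912 CPM in the chlordecone libraries against 4014 and 4099 CPM in the controls. In F3 all 8 were below 0, with sums of 1270, 4256 and 3588 CPM in the controls and 1613, 2510 and 2404 CPM in the chlordecone libraries. The F3 control with the lowest smooth muscle sum, control 1, had the highest Kcnma1. The part of smooth muscle or of any other tissue in the Kcnma1 differences was not tested. The regulatory beta subunit Kcnmb1, typical of smooth muscle, was at 1.15 and 3.09 CPM in the F1 controls, against 23.4, 3.11 and 3.31 CPM in the chlordecone libraries. Chlordecone 1 stood apart and the other 2 were at the level of control 2. In F3, Kcnmb1 was at 1.10, 6.37 and 5.24 CPM in the controls, beside 2.31, 2.38 and 2.38 CPM in the chlordecone libraries, with overlap. The neuronal beta subunit Kcnmb4 was at 8.49 and 6.84 CPM in the F1 controls, against 3.21, 5.89 and 3.04 CPM in the chlordecone libraries (edgeR adjusted p = 0.525). Reads of the antisense genes Kcnmb4os1 and Kcnmb4os2, at up to 6.60 and 8.29 CPM, cannot be told apart from those of Kcnmb4 in shared exons.

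Kcnn4, the intermediate-conductance calcium-activated channel of epithelia and leukocytes, was the second member whose groups did not overlap in the same direction in both generations. Its F1 controls stood at 0 and 0.375 CPM (0 and 8 reads), against 4.75, 2.24 and 11.3 CPM (120, 41 and 245 reads) in the chlordecone libraries. Neither control reached 10 reads, so Kcnn4 passed edgeR's low-count filter in F1 only through the group where it is high. Its F1 separation follows in part from how genes were admitted to the test. In F3 it was at 0.0952, 0.255 and 0.324 CPM in the controls, against 0.467, 0.337 and 0.613 CPM in the chlordecone libraries. The log2 fold change was 4.95 (SE 1.29, edgeR adjusted p = 0.231) in F1 and 1.07 (SE 0.49, edgeR adjusted p = 0.492) in F3, and the difference between them had an edgeR adjusted p of 0.152. DESeq2 called Kcnn4 in F1 (adjusted p = 0.000675) and not in F3 (adjusted p = 0.478). Kcnn2, a small-conductance channel, was at 3.41 and 3.70 CPM in the F1 controls, against 17.6, 5.13 and 6.21 CPM in the chlordecone libraries, with chlordecone 1 apart from the rest. A330093E20Rik, which overlaps its exons on the other strand, reached 6.18 CPM in an F1 library, and its reads cannot be told apart from those of Kcnn2 there. In F3, Kcnn2 was at 0.581 to 0.721 CPM in the controls and 0.443 to 0.581 CPM in the chlordecone libraries. Kcnn3, also of small conductance, overlapped in both generations.

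Kcnj16 and Kcnj15, inward rectifiers of transporting epithelia such as the kidney tubule, were among the members with the largest F1 fold changes. Kcnj16 was at 0.419 and 1.22 CPM in the F1 controls, against 186, 1.80 and 64.6 CPM in chlordecone 1, 2 and 3. The higher values lay in chlordecone 1 and 3, the libraries with the highest sums of vas deferens and epididymis markers, and in the same order. That order of the sums is the order of Akr1b7 and Crisp1, which make up most of them. Defb42 was highest in chlordecone 3, at 115, 52.7 and 399 CPM, and Adam7, at most 1.64 CPM, was highest in chlordecone 2. The log2 fold change of Kcnj16, 6.66 (SE 1.75, edgeR adjusted p = 0.232), was 1.13 with chlordecone 1 and 3 left out. In F3 it had 0 reads in every control and 1, 6 and 4 reads in the chlordecone libraries. Kcnj15 was at 0.576 and 0.328 CPM in the F1 controls, against 3.44, 2.13 and 7.41 CPM in the chlordecone libraries. Here all 3 treated libraries were above the controls, with a log2 fold change of 3.25 (SE 0.87, edgeR adjusted p = 0.237). In F3, Kcnj15 overlapped, at 0.275 to 0.905 CPM in the controls and 0.627 to 1.40 CPM in the chlordecone libraries. DESeq2 called both genes in F1, with adjusted p of 0.00697 for Kcnj16 and 0.00844 for Kcnj15.

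The summed clear cell markers were higher in all 3 F1 chlordecone libraries as well, in another order than Kcnj16. The sum of 4 markers of the proton-secreting clear cells of the epididymis was 4.35 and 5.86 CPM in the F1 controls and 28.6, 33.5 and 70.4 CPM in the chlordecone libraries, and at most 0.407 CPM in F3. All 4 had a log2 fold change above 0 in F1. The groups overlapped for Atp6v1b1, at 3.35 and 5.06 CPM in the controls and 2.38, 8.72 and 7.78 CPM in the chlordecone libraries. The part of vas deferens, epididymis or clear cells in the Kcnj16, Kcns3, Kcnq1, Kcnj15 and Kcnn4 differences was not tested. Chlordecone 2, where Kcnj16 and Kcns3 were near the controls, had 156 CPM of the vas deferens and epididymis markers, above both controls.

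**Figure D4:**
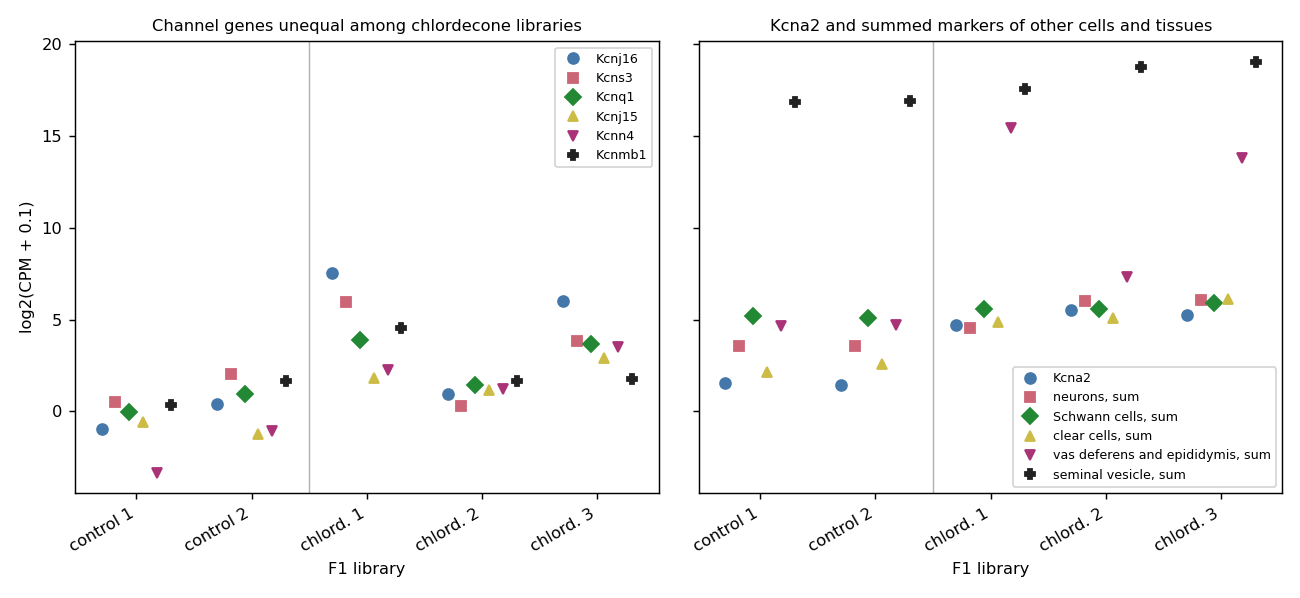
Levels as log2(CPM + 0.1) in the 5 F1 libraries, 1 marker shape per gene, for 6 channel genes (left) and for Kcna2 beside the summed CPM of 5 marker lists (right). Kcnj16 and Kcns3 are high in chlordecone 1 and 3 and near the controls in chlordecone 2, while Kcna2 and each of the 5 sums are above the controls in all 3. Other sums not drawn, such as those of basal epithelium, adipocytes and leukocytes, were above both controls as well.

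The promoter window of Kcnj15, at chr16:95257308-95257607 on the forward strand, is shown as a contrast to those of Kcna2 and Kcnma1. It is 49.7% G or C with 2 CpG. Capitals mark TATAAA on the other strand. Gm49643 overlaps Kcnj15 exons on the other strand and is listed in neither table.
Kcnj15: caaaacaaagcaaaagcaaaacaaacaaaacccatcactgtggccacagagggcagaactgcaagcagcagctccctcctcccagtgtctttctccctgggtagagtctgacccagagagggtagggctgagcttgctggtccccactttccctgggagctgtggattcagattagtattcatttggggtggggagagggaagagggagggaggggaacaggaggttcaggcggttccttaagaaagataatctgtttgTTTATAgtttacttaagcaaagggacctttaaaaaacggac

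RefSeq promoter windows (GRCm38.p6) were found for 58 of the 81 members, 82 windows of 300 bases among 32851 for all genes. The members' windows were richer in G and C, with a median of 59.0% against 52.7%, and held a median of 9.5 CpG against 7. The GC box GGGCGG, on either strand, was in 50% of the members' windows and in 35.7% of all windows. TATAAA was in 4.88%, those of Kcnab1, Kcnj9, Kcnj15 and Kcnj16, against 13.6% of all. A full oestrogen response element, GGTCA and TGACC with 3 bases between them, was in 0 of 82 windows and in 0.0700% of all, and an androgen response element, AGAACA and TGTTCT with 3 bases between them, in 0 and in 0.00913%. The CArG box, the site of serum response factor in muscle genes, was in 0 of 82 windows and in 1.63% of all. A match is a description of the letters and not a binding site, and none was tested against expression.

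None of the other inward rectifiers was at an unadjusted p under 0.05 in F1. Kcnj8, the vascular smooth muscle pore of ATP-sensitive channels, was at 9.01 and 8.01 CPM in the F1 controls, against 20.2, 6.16 and 22.0 CPM in the chlordecone libraries, with chlordecone 2 below the controls. Kcnj2, the classical strong inward rectifier, was at 5.55 and 4.12 CPM and at 16.2, 9.65 and 4.19 CPM. Its groups overlapped in F1, and in F3 they did so at 2.65 to 7.55 CPM. Kcnj3, a G-protein-gated channel, had 36 and 33 reads in the F1 controls and 11, 0 and 10 reads in the chlordecone libraries (edgeR adjusted p = 0.570), and is not listed in the F3 table.

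Of the two-pore leak channels, Kcnk1 had the highest mean level per kilobase of exon in both generations, 19.9 CPM per kb in F1 and 86.5 in F3. It was at 29.9 and 28.2 CPM in the F1 controls, against 73.0, 24.6 and 67.2 CPM in the chlordecone libraries. Chlordecone 1 and 3 were high and chlordecone 2 was below both controls, so the groups overlapped (edgeR adjusted p = 0.482). In F3 it was level, at 209, 200 and 171 CPM in the controls and 197, 210 and 173 CPM in the chlordecone libraries, with a log2 fold change of -0.00 (SE 0.13). Kcnk3, an acid-sensitive leak channel of smooth muscle and neurons, ranked second per kilobase in both generations, at 13.9 and 3.69 CPM per kb. Its F1 values were 37.7 and 29.0 CPM in the controls and 62.5, 105 and 41.9 CPM in the chlordecone libraries. All 3 treated libraries were above the controls, with a log2 fold change of 1.07 (SE 0.41, edgeR adjusted p = 0.374). In chlordecone 2 alone against the controls the log2 fold change was 1.66. In F3 it overlapped, at 8.01, 21.6 and 18.3 CPM and 9.90, 17.1 and 13.2 CPM. The stretch-sensitive channel Kcnk2, at 12.1 to 19.7 CPM in F1 and 1.10 to 3.08 CPM in F3, and Kcnk6, at 1.70 to 6.60 CPM and 4.32 to 9.69 CPM, overlapped in both generations. Gm9899, on the other strand of Kcnk3, stayed at or below 2.06 CPM.

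None of the 11 auxiliary subunits tested in F1 and none of the 8 tested in F3 was at an unadjusted p under 0.05 by edgeR. Kcne4, an inhibitory partner of voltage-gated channels, was at 4.72 and 8.58 CPM in the F1 controls, against 10.3, 7.85 and 8.88 CPM in the chlordecone libraries. Kcne3, which keeps Kcnq1 open in epithelia, overlapped in F1, at 3.56 and 4.08 CPM and at 3.64, 8.56 and 1.75 CPM. Kcnip3, a calcium-binding partner of Kv4 channels, overlapped in both generations, at 2.34 to 10.5 CPM in F1 and 2.50 to 4.41 CPM in F3. The beta subunit Kcnab3 was slightly lower in F3 without overlap, at 4.04, 3.49 and 3.09 CPM in the controls and 2.92, 2.67 and 2.53 CPM in the chlordecone libraries (log2 fold change -0.39, edgeR adjusted p = 0.516). Kcnmb2, a further BK beta subunit described because its values were seen, had 0 reads in every F3 control and 80, 2 and 15 reads in the chlordecone libraries. EdgeR's filter left it untested, and most of its reads are in chlordecone 1.

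Across the 43 members tested in both generations, 14 had a log2 fold change above 0 in both, 6 below 0 in both, 17 above 0 in F1 and below in F3, and 6 the reverse. Over the 14079 genes tested in both, the shares were 26.8%, 19.5%, 30.1% and 23.6%. Without overlap and in the same direction in both there were 2 of the 43, Kcnma1 and Kcnn4, where 2.41% of all genes met this. Kcnn4 was tested in F1 only through its treated libraries. After Kcna2, the members with the smallest p for a difference between generations were Kcnn4, Kcnq1, Kcnj15, Kcnh1 and Kcnn2. Their differences were -3.82, -2.34, -2.59, 3.93 and -1.73 on the log2 scale, with edgeR adjusted p of 0.152, 0.187, 0.193, 0.212 and 0.214, so none passed.

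**Figure D5:**
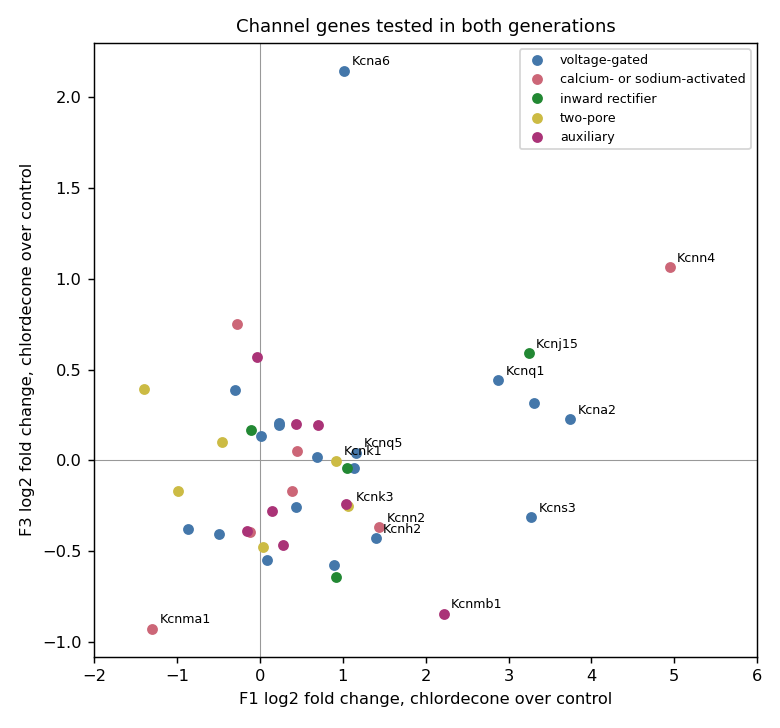
Log2 fold change of chlordecone over control in F3 (vertical) against F1 (horizontal) for the 43 potassium channel genes tested in both generations, coloured by role, with lines at 0. Kcnma1 lies in the lower left, at -1.30 and -0.93, Kcnn4 in the upper right, at 4.95 and 1.07, and Kcna2 far to the right near 0 in F3. Kcnn4 was tested in F1 only through its treated libraries.

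The genes that build the potassium gradient or bind the channels were counted from a list of 28 partners, of which 25 were tested in F1 and 21 in F3. EdgeR called 0 in F1 and 0 in F3. At an unadjusted p under 0.05, 4 were higher in F1 (Atp1b3, Fxyd1, Fxyd4 and Dpp6) and 1 lower (Atp12a), and in F3 there were 0. These are 16% and 4% of the 25, beside 7.93% and 3.60% of all genes. DESeq2 called the same 5 in F1, where it called 3.89% of all genes, and 0 in F3. Fxyd4, a regulator of the sodium-potassium pump, was at 0.210 and 0.141 CPM in the F1 controls, from 4 and 3 reads, against 117, 1.20 and 23.3 CPM in the chlordecone libraries (edgeR adjusted p = 0.216). It passed edgeR's low-count filter only through the treated libraries. Atp1b1, a beta subunit of the pump, overlapped in F1, at 709 and 598 CPM and at 267, 531 and 809 CPM. Its relative Atp1b3 did not, at 64.0 and 67.6 CPM and at 173, 151 and 469 CPM (edgeR adjusted p = 0.232). The hydrogen-potassium pump Atp12a, which acidifies the lumen and takes up potassium, was at 236 and 226 CPM in the F1 controls, against 127, 116 and 108 CPM in the chlordecone libraries, a close grouping without overlap (log2 fold change -0.98, edgeR adjusted p = 0.227). In F3, Atp12a was at 685 to 756 CPM in the controls and 696 to 1024 CPM in the chlordecone libraries, with overlap. The Kv2 partner Amigo1 was level in F1, at 11.6 to 14.9 CPM, and at 65.9 to 87.3 CPM in F3.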

How the data were processed

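Prostate messenger RNA of 11 libraries in 4 groups was analysed. For each generation, the authors deposited raw counts by Ensembl gene. The submitters' processing notes name HTSeq 0.6.1, TopHat2 2.0.14 with Bowtie2 2.1.0, bcl2fastq 2.17.1.14 and DESeq2 1.6.3, and the build mm10. The annotation release is not given in the sources used here, nor is the strand setting. Per the labels' protocols, libraries were stranded poly-A libraries. A column headed C was taken for a control and K for chlordecone (kepone), and 0 sample columns were left over. The authors' own comparison columns were not used.

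The counts were tested within each generation with edgeR 4.0.16 in R 4.3.3 (filterByExpr, minimum count 10 and total 15, TMM, quasi-likelihood F test, two-sided, no covariate), with Benjamini-Hochberg adjustment over all genes and a threshold of 0.05. The filter passed 79 of the 80 members listed in F1 and 44 of the 76 in F3. The difference between generations was an interaction over the genes in both tables. Alternatives were DESeq2 1.42.0, no filter, DESeq2 size factors, a minimum mean of 1 CPM, a replicate block, 1 fit of all libraries, and leaving out libraries. Counts limit precision: a gene at 0.1 CPM rests on few reads in F1, and PCR duplicates are not separable.

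The members, lists and rules were chosen with earlier results of these data known. Named were, in each generation, members past the threshold, the 6 with the smallest p in each direction, the 3 with the highest CPM per kb in each role, the 6 with the smallest interaction p, and Kcna2. Of the partner list, those past the threshold and the 4 with the highest mean CPM in each generation were to be named. Of the partner and Schwann cell marker lists, 4 genes are not reported here and are left out of the lists' counts and sums. Outside that rule, Fxyd1 and Dpp6 were named because the text counts 5 or fewer such genes, Kcnmb2 for the same reason, and Kcna1 as the channel that pairs with Kcna2. Coordinates of genes come from GENCODE M21 (GRCm38), and exon lengths are unions of its exons. Promoters are from RefSeq (GRCm38.p6).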

Additional observations from a re-analysis of the deposited data

Results flagged for a closer look

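Kcna2 was singled out because its chlordecone effect differed between the generations by the test of the difference itself. The log2 fold change in F3 minus that in F1 was -3.45 (SE 0.46, edgeR adjusted p = 0.00485). Kcna2 was higher than both controls in 3 of 3 F1 chlordecone libraries, while the F3 groups overlapped at 0.159 to 0.255 CPM. Groups of 3 or fewer libraries allowed no test for a single outlying sample.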

How the results depend on the processing

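The number of members called in F1 was 1, and it became 6 with DESeq2, 6 in 1 fit of all libraries, 2 with the replicate block (Kcna2 and Kcnj16), and 0 to 12 when libraries were left out in turn. It was 0 without F1 control 1, F1 control 2 or F1 chlordecone 3, with 7, 9 and 11 members at an unadjusted p under 0.05, and 12 without F1 chlordecone 2. The 13 F1 members at an unadjusted p under 0.05 became 7 to 26 when libraries were left out in turn and 6 without chlordecone 1 and 3. With those 2 libraries left out, the fit holds 1 treated library, assumed to vary as little as the 2 controls, and its 3 calls (Kcna2, Kcnk3 and Kcnma1) are not evidence for these genes. A fit without 1 of the F1 controls likewise holds 1 control, assumed to vary like the chlordecone libraries. The F3 count of 0 became 2 with DESeq2 and stayed 0 without any 1 library. The 3 F3 members at an unadjusted p under 0.05 became 7 with no filter, 1 at a mean of at least 1 CPM, 5 in 1 fit of all libraries, and 3 to 11 when libraries were left out. The F3 median log2 fold change of -0.02 became 0.15 in 1 fit of all libraries and ran from -0.18 to 0.16 when libraries were left out; in F1 that range was -0.30 to 0.27. The single member called for the difference between generations became 2 with DESeq2 (Kcna2 and Kcnn4), and 1 to 7 when libraries were left out, 7 without F1 chlordecone 2. Of 435 values of single genes under alternatives, 404 kept direction and side of the threshold, 27 passed it, 3 fell short of it (Kcna2 in F1) and 1 reversed: Kcns3 in F1, at -1.19 with chlordecone 1 and 3 left out. Deviations from the group mean correlated between same-numbered samples at 0.048 and 0.058 in F1 and at 0.131, 0.002 and 0.002 in F3. With 2 F1 controls the deviations of 1 mirror those of the other, so the 2 F1 values are not separate evidence. In F3, control 2 and control 3 did not correlate best with their own number. The numbers were not taken as pairs, but so few samples cannot exclude pairing. The block left the F3 count at 0 and the count for the difference between generations at 1. The share of all genes called was counted only for DESeq2 within each generation and for the fits without F1 chlordecone 2. For the other alternatives it was not counted, so their changed counts are not results about the members. The causes were not tested. At F3 levels of 3 to 27 reads a library, as for Kcna6 and Kcna2, depth limits what can be seen.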
